A study of Mus musculus with 9 samples.

Results

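The histone cluster genes are the core and linker histone genes that lie together in clusters of the mouse genome. They were taken here as all protein-coding genes of the GENCODE M21 annotation whose symbol starts with Hist1h, Hist2h, Hist3h or Hist4h. That rule gave 67 genes, of which 65 were found among the 27203 gene identifiers of the expression table; Hist1h2bh and Hist1h2bm were not analysed here. The 65 genes comprised 6 genes for the linker histone H1, 18 for H2A, 16 for H2B, 12 for H3 and 13 for H4. By position, 52 belonged to the Hist1 cluster on chromosome 13, 10 to the Hist2 cluster on chromosome 3, 2 to Hist3 on chromosome 11 and 1, Hist4h4, to chromosome 6. The measure was FPKM, a fragment count scaled to the length of the transcript and the depth of the library, summed over the transcripts of each gene.

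Histones H2A, H2B, H3 and H4 form the nucleosome core around which DNA is wrapped, and H1 binds the DNA between cores. Most cluster genes are transcribed in S phase, when new DNA has to be packaged, and their mRNA ends in a conserved stem-loop bound by the protein SLBP instead of a poly(A) tail. Some cluster genes can also make longer polyadenylated mRNA, which is seen in cells that do not divide, and a few members are made mainly in the testis.

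The lungs came from male C57BL/6 mice aged 6 to 8 weeks. Control mice were intubated and not ventilated. The VILI (ventilator-induced lung injury) mice received 4 hours of mechanical ventilation at a high tidal volume of 20 ml/kg under anesthesia and were killed directly after it (VILI 0 hours) or 6 hours later (VILI 6 hours). Each group held 3 libraries of whole lung RNA, which the study describes as coming from separate mice. Its methods name rRNA depletion, under which mRNA without a poly(A) tail can be seen, but the labels name another library kit, so how fully such mRNA was captured is not settled.

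The summed FPKM of a library ran from 366360 to 388459; the FPKM table holds no read counts and read totals were not used here, so no counting interval was given. Genes that define lung (Sftpc, Scgb1a1, Ager and Cdh5) summed to between 33060 and 49690 FPKM in every library. Replicate 1 of VILI 6 hours stood apart from its group. Its ranks over all genes followed the controls (Spearman correlation 0.977 to 0.979) more closely than replicate 2 (0.963) or replicate 3 (0.944) of its own group. Its 7 erythroid markers summed to 489 FPKM, against 3226 to 5421 in the other 8 libraries, and its T cell and B cell marker sums were the lowest of all 9. Replicate 3 of VILI 6 hours had the lowest correlations with the controls of all ventilated libraries (0.9415 to 0.9422), and 0.973 with replicate 2. Which of these libraries is typical of the group cannot be told here. The main counts and medians at VILI 6 hours are given with and without replicate 1. In whole lung RNA, fewer cells of a type and less RNA per cell cannot be told apart.

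The stem-loop of the annotated transcripts is shown first, because it is the feature that sets these mRNAs apart; it comes from the annotation, not from the libraries. A hairpin with 6-base stems and a 4-base loop was found after the stop codon in 42 of the 65 genes, at a median of 31.5 bases from it. Only 48 members had 50 or more annotated bases after the stop codon, and all 42 were among these. In the sequences below, written 5′ to 3′ as DNA, capitals mark the stems and lower case the loop.
H1, H2A, H2B and H3 genes, 24 members: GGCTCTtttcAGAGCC
H4 genes, 7 members: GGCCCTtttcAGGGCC
H1, H2B and H3 genes, 6 members: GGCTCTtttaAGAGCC
H4 genes, 2 members: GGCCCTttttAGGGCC
1 H4 gene: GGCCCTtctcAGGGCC
1 H3 gene: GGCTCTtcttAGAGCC
1 H2A gene: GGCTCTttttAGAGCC
All 10 H4 hairpins had the stem GGCCCT, and the 32 hairpins of the other types had the stem GGCTCT. By type, the hairpin was present in 4 of 6 H1, 11 of 18 H2A, 8 of 16 H2B, 9 of 12 H3 and 10 of 13 H4 genes. Across all 21901 coding genes searched in the same way, 47 carried such a hairpin, and the other five were H2afx, H2bfm, Hist1h2bh, Hist1h2bm and Tmem164. Of the 65 genes, 24 had an annotated 3′ end of 200 or more bases.

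Histone cluster mRNA was readily measured in lung. The mean over the 9 libraries was at least 1 FPKM for 62 of the 65 genes, at least 10 FPKM for 40 and at least 100 FPKM for 4. The summed FPKM of the 65 genes was 1816, 2028 and 1788 in the control libraries, 1535, 2203 and 1437 at VILI 0 hours, and 1499, 2337 and 2729 at VILI 6 hours. The group means were 1877 ± 131, 1725 ± 417 and 2188 ± 628 FPKM (SD, n = 3 each). The lowest library of each ventilated group lay below all controls and the highest lay above all controls, so the groups overlapped in both directions. The sum was 0.372% to 0.724% of the summed FPKM of a library.

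**Figure D1:**
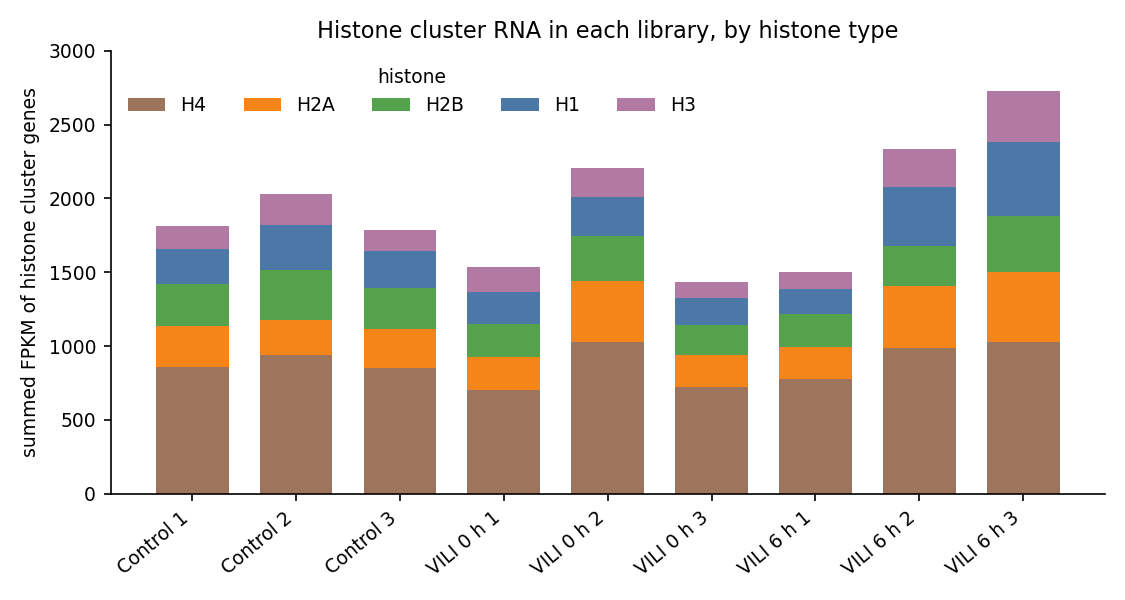
Summed FPKM of the 65 histone cluster genes in each of the 9 libraries, with the bar divided by histone type. The sum reaches 2729 in replicate 3 of VILI 6 hours and 1437 in replicate 3 of VILI 0 hours, and H4 is the largest part of every bar.

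H4 mRNA made up 37.7% to 51.7% of the histone sum, lowest in replicate 3 and highest in replicate 1 of VILI 6 hours. The 4 genes with the highest level (Hist1h4d, Hist1h4c, Hist1h1e and Hist1h4h) gave 38.1% of the mean sum and the 12 highest gave 61.5%. Median levels over the genes of a type were 23.8 FPKM for H1, 11.04 for H2A, 9.10 for H2B, 17.6 for H3 and 37.9 for H4. Levels of near-identical genes depend on how the fragments were divided between copies. At least 21 of the 65 genes had another gene with a coding sequence of 99% or higher identity. Hist2h3c1 was compared by a longer annotated coding form and is not in this count, though Hist2h3c2 matches it. Levels also depend on the annotated transcript length, which ran from 312 to 7425 bases.

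The histone genes varied more between libraries of a group than other genes did. The median SD of a histone gene on the log2 scale was 0.293 in controls, 0.439 at VILI 0 hours and 0.730 at VILI 6 hours, against 0.133, 0.209 and 0.329 over all genes tested. In controls the highest library was at least 2-fold above the lowest for 10 of 63 genes; this held for 19 genes at VILI 0 hours and 42 at VILI 6 hours. The shares were 15.9%, 30.2% and 66.7% of the histone genes, against 9.58%, 15% and 29.0% of all genes tested. Within VILI 6 hours, replicate 1 was the lowest for 51 of the 63 genes (81.0%, against 29.4% of all genes tested) and replicate 3 the highest for 51 (81.0%, against 25.7%). Replicate 3 of VILI 6 hours was the highest of all 9 libraries for 43 genes (68.3%, against 13.9% of all genes tested), and replicate 3 of VILI 0 hours the lowest of all 9 for 35 (55.6%, against 9.23%).

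The width of the spread within VILI 6 hours was taken for each histone type. Replicate 3 over replicate 1 gave a ratio of summed FPKM of 3.07 for H3, 2.91 for H1, 2.14 for H2A, 1.74 for H2B and 1.33 for H4. At VILI 0 hours, replicate 2 over replicate 3 gave 1.74 for H3, 1.46 for H1, 1.86 for H2A, 1.49 for H2B and 1.43 for H4. At VILI 0 hours the H1, H2B and H4 ratios were close to each other.

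**Figure D2:**
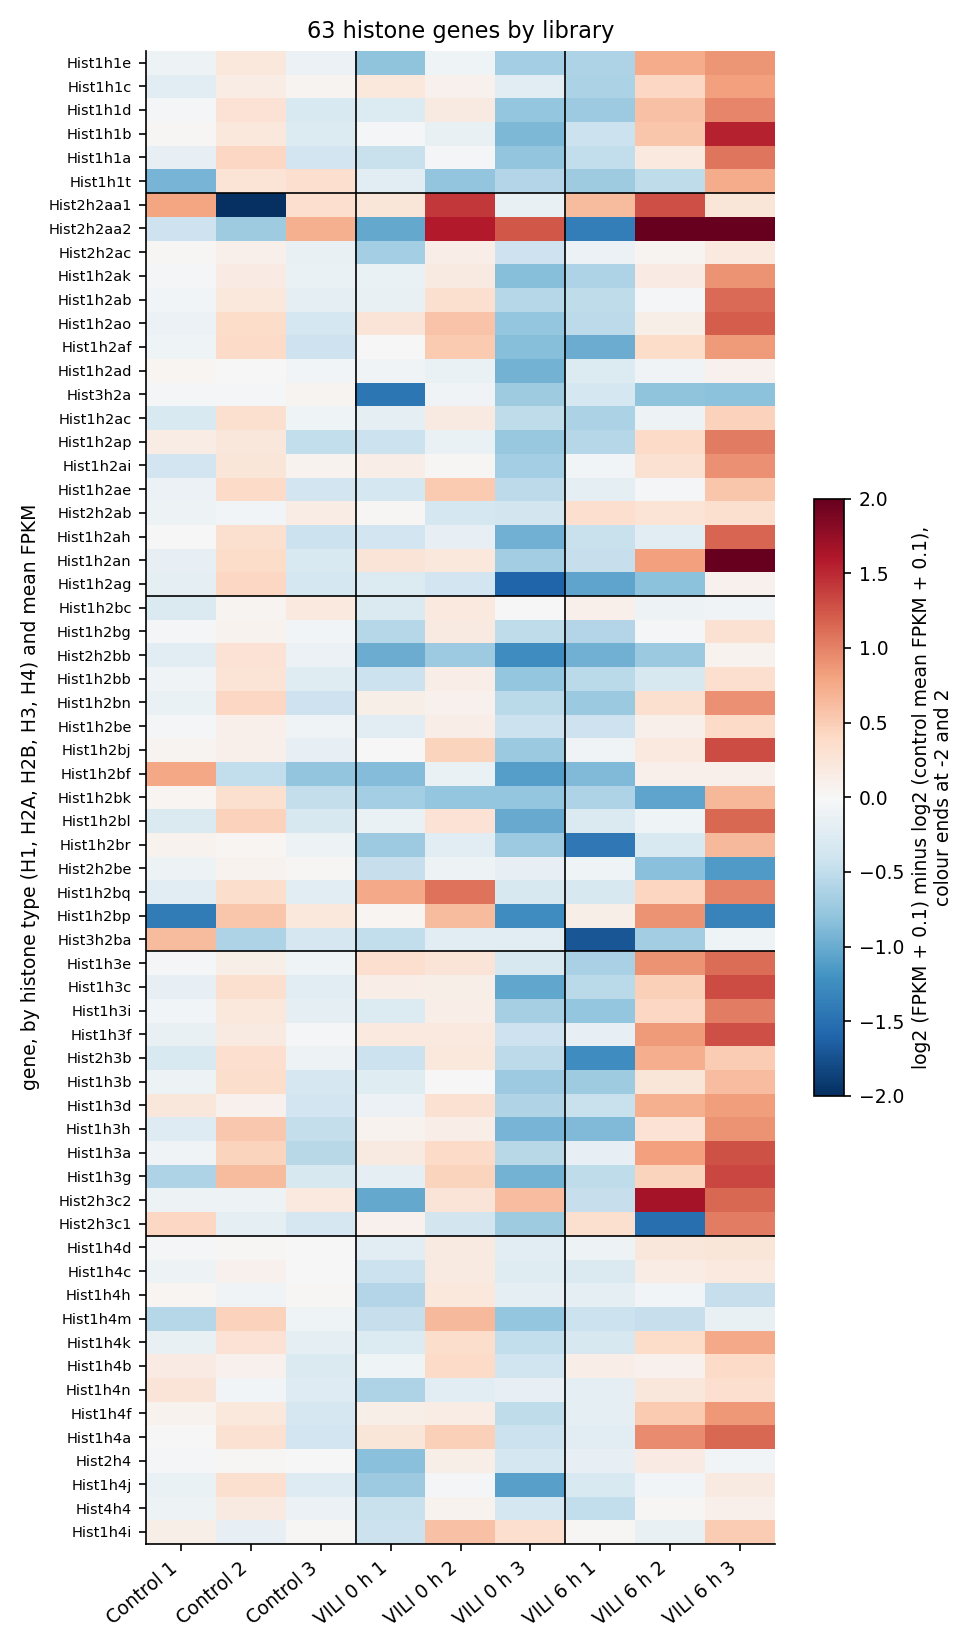
Each row is 1 of the 63 histone genes tested and each column a library; colour is the log2 difference from the control mean, red above and blue below. The column of replicate 3 of VILI 6 hours is above the control mean for 55 genes and that of replicate 3 of VILI 0 hours for 4. Of all genes tested, 36.0% and 39.9% are above it in these libraries.

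Tests across all genes used limma on log2(FPKM + 0.1) with the 19378 genes that had a mean of at least 0.1 FPKM, which left out Hist1h2aa and Hist1h2ba and kept 63 histone genes. A call is a two-sided unadjusted P under 0.05, the threshold the study used, and the Benjamini-Hochberg adjusted p over all genes tested stands beside it. Log2 fold changes are on the log2(FPKM + 0.1) scale. With all 9 libraries, no histone gene had an adjusted p under 0.05 by limma in any of the 3 comparisons (0.284%, 0.702% and 0% of all genes tested had), and the unadjusted calls were 2, 2 and 3. FPKM is relative to the rest of the library, and centring each library on its median gene moved the median log2 fold change of all genes tested from -0.07 to 0.05 at VILI 0 hours and from -0.09 to 0.04 at VILI 6 hours, against control. The calls over all genes went from 1319 higher and 1811 lower to 1944 and 1232 at VILI 0 hours, and from 1583 and 2369 to 2270 and 1640 at VILI 6 hours. Medians of the histone genes are therefore given beside those of all genes.

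Immediately after ventilation, most histone genes lay below control on average, few of them beyond the spread between libraries. In VILI 0 hours vs control, 2 of the 63 genes fell (9.35% of all genes tested fell), none rose (6.81% of all genes tested rose), and both genes that fell are described below. The log2 fold change was below 0 for 52 genes and above 0 for 11, with a median of -0.18 over the histone genes and -0.07 over all genes tested (-0.07 and 0.05 with centred libraries). The median was -0.36 for H1, -0.15 for H2A, -0.24 for H2B, -0.15 for H3 and -0.14 for H4. All 3 VILI 0 hours libraries lay below all controls for 5 of the 63 genes, against 21.6% of all genes tested. Replicate 2 of this group ran against the other two: its median difference from the control mean was 0.15, against -0.25 in replicate 1 and -0.59 in replicate 3. Without replicate 2, 7 genes fell and none rose (8.3% and 6.08% of all genes tested) and the median was -0.38. Without replicate 3, 1 gene fell and 1 rose (6.17% and 5.04%) and the median was -0.03.

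At 6 hours after ventilation, the 3 libraries disagreed on the direction of the histone genes. In VILI 6 hours vs control, 2 genes fell (12.2% of all genes tested fell) and none rose (8.17% of all genes tested rose), while the log2 fold change was above 0 for 43 genes and below 0 for 20. The median was 0.16 over the histone genes and -0.09 over all genes tested. The median difference from the control mean was -0.45 in replicate 1, 0.20 in replicate 2 and 0.75 in replicate 3. In these libraries 7, 41 and 55 of the 63 genes were above the control mean, against 50.6%, 40.5% and 36.0% of all genes tested. By type, the median fold change was 0.41 for H3, 0.30 for H1, 0.19 for H2A, 0.13 for H4 and -0.06 for H2B; with libraries centred on their median gene, the H2B value was above 0 (0.07).

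Between the ventilated groups, most histone genes were higher on average at 6 hours. Against VILI 0 hours, 3 genes rose (5.06% of all genes tested rose) and none fell (4.94%). The log2 fold change was above 0 for 57 of the 63 genes, with a median of 0.36 over the histone genes and -0.02 over all genes tested. Without replicate 3 of VILI 6 hours that median was 0.10, and without replicate 3 of VILI 0 hours 0.16. The median was 0.62 for H1, 0.50 for H3, 0.32 for H2A, 0.24 for H4 and 0.20 for H2B. All 3 VILI 6 hours libraries lay above all 3 VILI 0 hours libraries for 1 of the 63 genes, Hist2h2ab, against 6.25% of all genes tested. The comparisons share their libraries pairwise, so they are not independent of each other.

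**Figure D3:**
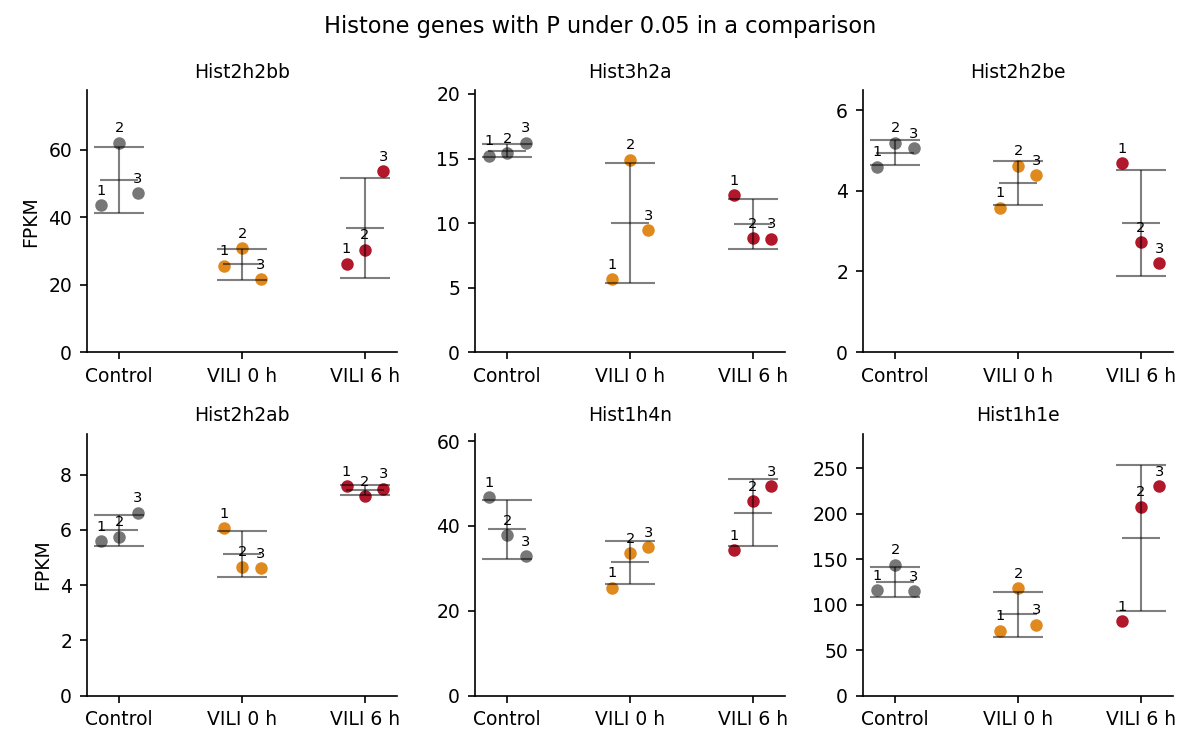
FPKM of the 6 histone genes with a call, 1 panel a gene, from 0; points are libraries labelled by replicate number, and the bar and whiskers are the mean and SD of 3 libraries. Hist2h2bb at VILI 0 hours and Hist2h2ab at VILI 6 hours show groups without overlap with control, while Hist1h1e at VILI 6 hours has replicate 1 far below the other two.

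Replicate 1 decided how many histone genes were called at 6 hours. Without it, 19 of the 63 genes rose and 2 fell in VILI 6 hours vs control, against 12.9% and 26% of all genes tested, and 11 had an adjusted p under 0.05 by limma, as had 23.3% of all genes tested. Against VILI 0 hours, 32 genes rose and 1 fell without it, against 8.55% and 13.9% of all genes tested, and 3 had an adjusted p under 0.05 by limma (1.87% of all genes tested). The medians became 0.49 against control and 0.67 against VILI 0 hours, where those of all genes tested were -0.14 and -0.08. By type, the medians against control became 0.74 for H1, 0.53 for H2A, 0.13 for H2B, 0.85 for H3 and 0.18 for H4, and against VILI 0 hours 1.06, 0.64, 0.43, 0.95 and 0.34. The genes that rose against control without replicate 1 were 4 of 6 for H1, 3 of 17 for H2A, 1 of 15 for H2B, 8 of 12 for H3 and 3 of 13 for H4. Against VILI 0 hours they were 5 for H1, 6 for H2A, 5 for H2B, 10 for H3 and 6 for H4. With centred libraries as well, a setting chosen after seeing the data, 32 rose and 1 fell against control (22.3% and 14.3% of all genes tested), and 39 rose and 1 fell against VILI 0 hours (12.1% and 9.23%). When replicate 3 was left out instead, no gene rose and 4 fell against control (6.64% and 7.5% of all genes tested), and the median was -0.10. With 2 libraries left in VILI 6 hours, these fits take the spread from all 3 groups. Values of single genes without replicate 1 below are to be read beside these shares.

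**Figure D4:**
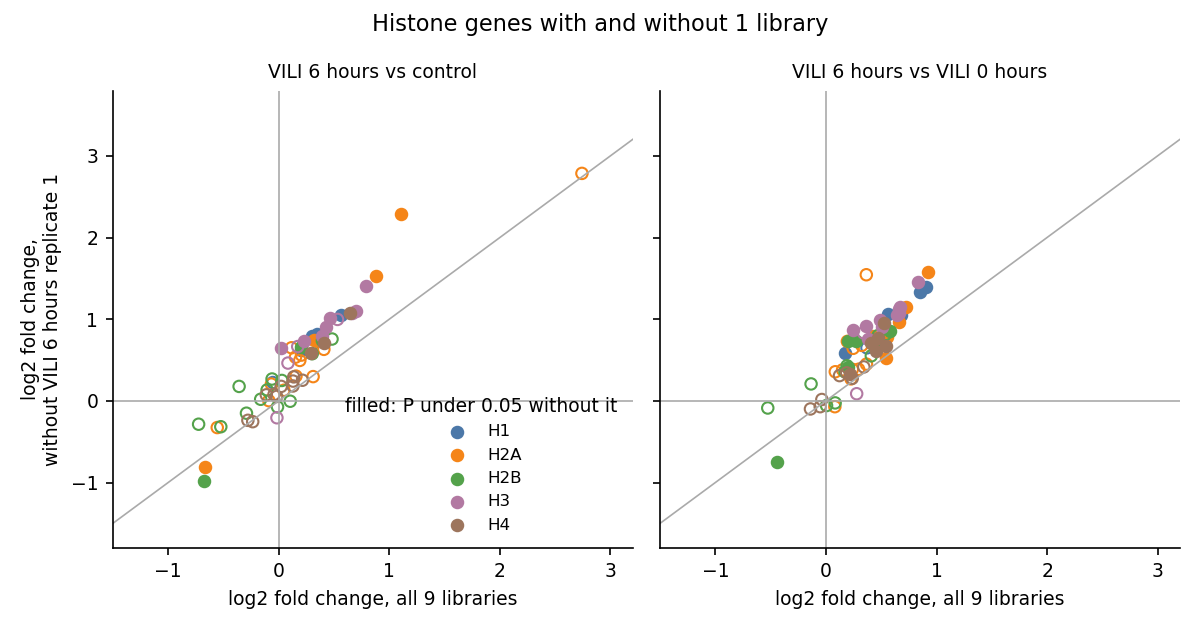
Each point is a histone gene, with its log2 fold change from all 9 libraries on the x axis and that without replicate 1 of VILI 6 hours on the y axis, at left against control and at right against VILI 0 hours; filled points have P under 0.05 without that library. Most points lie above the diagonal, and 19 and 32 of them are filled and above 0.

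The H1 genes code for the linker histones that bind between nucleosomes. Hist1h1e had the highest level of the type and lies at chr13:23620629-23622558 on the minus strand of GRCm38. It was at 116, 144 and 115 FPKM in controls, 71.7, 118 and 78.3 at VILI 0 hours, and 81.8, 208 and 230 at VILI 6 hours. Replicates 2 and 3 of VILI 6 hours were above every other library, and replicate 1 was within the range of VILI 0 hours. Hist1h1e rose between the ventilated groups (log2 fold change 0.85, SE 0.36, limma adjusted p = 0.472). Without replicate 1 of VILI 6 hours the same change was 1.33 (SE 0.20, limma adjusted p = 0.023), and that against control was 0.82 (SE 0.20, limma adjusted p = 0.022). The call held under 9 of 19 other settings: it was lost with no filter on low values, median-centred libraries, only the 6 libraries compared or eBayes without a trend, and without replicate 2 or 3 of VILI 6 hours, replicate 1 or 3 of VILI 0 hours, or replicate 1 or 3 of the controls. The gene overlaps Hist1h2be on the same strand, so fragments of the pair can be divided wrongly.

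Hist1h1c was next of the type, at 73.4, 94.7 and 88.7 FPKM in controls, 99.6, 91.2 and 73.0 at VILI 0 hours, and 55.0, 114 and 151 at VILI 6 hours. It was not called in any comparison with all libraries. Without replicate 1 of VILI 6 hours it rose by 0.62 against control (SE 0.17, limma adjusted p = 0.032). In that fit 23.3% of all genes tested had a limma adjusted p under 0.05 against control. Without replicate 3 instead, no histone gene rose against control. Of the other H1 genes, Hist1h1d, Hist1h1b and Hist1h1a had mean levels of 33.8, 13.8 and 9.49 FPKM, and replicate 3 of VILI 6 hours was the highest library for each. Hist1h1t, the H1 of the testis, was between 0.126 and 0.625 FPKM in all libraries.

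H2A pairs with H2B in the nucleosome core. Among the H2A genes Hist3h2a fell in both comparisons with control. It lies at chr11:58954685-58956830 on the plus strand and was at 15.2, 15.4 and 16.2 FPKM in controls, 5.65, 14.9 and 9.47 at VILI 0 hours, and 12.1, 8.85 and 8.80 at VILI 6 hours. All 6 ventilated libraries were below all 3 controls, as were the VILI 6 hours libraries for 15% of all genes tested. The log2 fold change was -0.74 (SE 0.29, limma adjusted p = 0.255) at VILI 0 hours and -0.66 (SE 0.29, limma adjusted p = 0.242) at VILI 6 hours. The call at 6 hours held under 5 of 19 other settings, and what ended it included median-centred libraries, the replicate block and the loss of any control, of replicate 2 or 3 of VILI 6 hours or of replicate 3 of VILI 0 hours. The call at 0 hours was lost with no filter on low values and without any 1 control or replicate 1 or 3 of VILI 0 hours, and without that replicate 1 the change was -0.39. Hist3h2a overlaps Trim17 on the same strand.

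Hist2h2ab went the other way at 6 hours. This H2A gene lies at chr3:96219865-96220308 on the plus strand and was at 5.59, 5.76 and 6.62 FPKM in controls, 6.07, 4.68 and 4.62 at VILI 0 hours, and 7.58, 7.23 and 7.49 at VILI 6 hours. It was the only one of the histone genes tested whose 3 VILI 6 hours libraries all stood above every library of both other groups (9.64% of all genes tested did so against control). It rose between the ventilated groups by 0.54 (SE 0.14, limma adjusted p = 0.283), and the call held under all 19 other settings. A gene on the opposite strand, Gm15444, overlaps it.

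The highest H2A levels belonged to a pair of near-identical genes on chromosome 3, Hist2h2aa1 and Hist2h2aa2, with means of 60.4 and 52.7 FPKM. Hist2h2aa1 was at 72.7, 0.191 and 53.1 FPKM in controls, so that 1 control stood near 0 while its copy was at 15.9 FPKM there. Summed, the pair was at 92.3, 16.1 and 96.0 FPKM in controls, 62.4, 190 and 99.9 at VILI 0 hours, and 75.4, 220 and 165 at VILI 6 hours. The sum still left replicate 2 of the controls far below the other two, and neither gene was called with all libraries. Without replicate 1 of VILI 6 hours, Hist2h2aa2 rose against control by 2.29 (SE 0.70, limma adjusted p = 0.046). In that fit 23.3% of all genes tested had a limma adjusted p under 0.05 against control. The coding sequences of the pair are identical, so the value of either copy depends on how fragments were divided. The sum of the pair was not tested. Hist1h2aa, an H2A of the testis, was at 0 in all libraries but replicate 3 of VILI 0 hours, where it was at 0.088 FPKM.

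H2B joins H2A in the core, and 2 of the 3 histone genes that fell code for it. Hist2h2bb, at chr3:96269752-96270132 on the plus strand, was at 43.7, 62.1 and 47.1 FPKM in controls, 25.6, 30.9 and 21.6 at VILI 0 hours, and 26.2, 30.4 and 53.7 at VILI 6 hours. All VILI 0 hours libraries were below all controls, and at VILI 6 hours replicates 1 and 2 were still in the VILI 0 hours range while replicate 3 was in that of the controls. The mean went from 50.9 ± 9.81 to 26.0 ± 4.65 FPKM (SD, n = 3 each). Hist2h2bb fell at VILI 0 hours by 0.96 on the log2 scale (SE 0.26, limma adjusted p = 0.12), and the call held under all 19 other settings. With the spread estimated without replicate 1 of VILI 6 hours the same change had an adjusted p of 0.039 by limma, the only one of the 63 genes under 0.05 in that comparison (6.93% of all genes tested were). Gm42743 overlaps it on the same strand and Gm20628 on the opposite one.

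Hist2h2be, at chr3:96221119-96223738 on the plus strand, has a long annotated 3′ end of 2192 bases and no annotated stem-loop. It was at 4.59, 5.19 and 5.05 FPKM in controls, 3.58, 4.63 and 4.39 at VILI 0 hours, and 4.68, 2.72 and 2.20 at VILI 6 hours. At VILI 6 hours replicates 2 and 3 were below every other library, and replicate 1 was within the control range. Hist2h2be fell in VILI 6 hours vs control (log2 fold change -0.68, SE 0.25, limma adjusted p = 0.181). Without replicate 1 of VILI 6 hours the change was -0.98 (SE 0.16, limma adjusted p = 0.0057), so that this gene moved opposite to most members in the same libraries. Its call was lost without replicate 2 or 3 of VILI 6 hours or of the controls.

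Hist1h2bc had the highest level among H2B genes and was not called. It was at 49.2, 62.3 and 68.4 FPKM in controls, 49.0, 68.8 and 60.1 at VILI 0 hours, and 64.4, 55.6 and 57.2 at VILI 6 hours. Hist1h2bg was next, with a mean of 48.3 FPKM. Hist1h2ba, an H2B of the testis, did not exceed 0.329 FPKM.

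H3 genes code for the core histone whose tail carries many known chromatin marks. None of the 12 was called with all libraries. The highest, Hist1h3e, was at 19.7, 22.0 and 18.9 FPKM in controls, 25.6, 24.3 and 16.3 at VILI 0 hours, and 12.9, 37.9 and 44.1 at VILI 6 hours. Replicate 1 of VILI 6 hours was thus the lowest of the 9 libraries and replicates 2 and 3 the highest. Without replicate 1, Hist1h3e rose by 0.91 against VILI 0 hours (SE 0.19, limma adjusted p = 0.049) and by 1.01 against control (SE 0.19, limma adjusted p = 0.0079). Of all genes tested, 1.87% and 23.3% had a limma adjusted p under 0.05 in these comparisons without replicate 1. Without replicate 3 instead, no histone gene rose against control. Hist1h3f, chosen after its values were seen, was at 14.3, 18.02 and 15.4 FPKM in controls, 18.4, 18.3 and 11.97 at VILI 0 hours, and 14.2, 28.8 and 39.1 at VILI 6 hours. Its change without replicate 1 was 1.07 against VILI 0 hours (SE 0.21, limma adjusted p = 0.046).

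H4, the partner of H3 in the core, had the highest levels. Hist1h4d, at chr13:23581598-23582735 on the plus strand, was at 287, 299 and 294 FPKM in controls, 254, 332 and 250 at VILI 0 hours, and 274, 345 and 349 at VILI 6 hours. Its group means were 293.2 ± 5.56, 278.8 ± 46.1 and 322.5 ± 42.0 FPKM (SD, n = 3 each), and it was not called. Hist1h4c and Hist1h4h followed with means of 180 and 127 FPKM, and Hist1h4h at VILI 6 hours had its lowest value, 101 FPKM, in replicate 3. Hist1h4k and Hist1h4b had means of 47.9 and 39.2 FPKM.

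Hist1h4n, at chr13:21831767-21832196 on the minus strand, was the only H4 gene called with all libraries. It was at 46.8, 37.9 and 32.9 FPKM in controls, 25.5, 33.6 and 35.1 at VILI 0 hours, and 34.2, 45.8 and 49.3 at VILI 6 hours. Replicate 1 of VILI 6 hours lay inside the VILI 0 hours range. Hist1h4n rose between the ventilated groups by 0.45 (SE 0.18, limma adjusted p = 0.46), and by 0.61 without that replicate (SE 0.17, limma adjusted p = 0.099). The call held under 12 of 19 other settings: it was lost with no filter, median-centred libraries, the replicate block or eBayes without a trend, and without replicate 2 or 3 of VILI 6 hours or replicate 1 of VILI 0 hours. Its coding sequence is identical to that of Hist1h4m, and the sum of the pair was 84.4, 115 and 85.4 FPKM in controls, 65.7, 121 and 67.5 at VILI 0 hours, and 75.8, 86.4 and 99.8 at VILI 6 hours. For the summed pair the ventilated groups overlapped.

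Fold changes were also set out by the 3′ end, which the choice of genes did not use. The median log2 fold changes of the 42 genes with an annotated stem-loop were -0.17 at VILI 0 hours and 0.13 at VILI 6 hours against control, and 0.33 between the ventilated groups. Those of the 21 tested genes without an annotated stem-loop were -0.23, 0.20 and 0.42. Genes with an annotated 3′ end of 200 or more bases (24 tested) had medians of -0.18, 0.01 and 0.20, and the 39 others -0.18, 0.21 and 0.41. Of the 65 genes, 15 had at most 2 bases annotated after the stop codon, where no stem-loop could be found. Those of them that were tested are in the group without a stem-loop and among the 39 others. The splits thus follow the annotation in part, and they were not tested.

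The promoters of an H1 and an H2B gene with calls are shown as examples, because between them they hold all 4 known histone promoter motifs searched. Promoters of 60 members were matched to RefSeq (GRCm38.p6), from 250 bases before to 50 after the start. The motifs searched on both strands were the octamer ATTTGCAT, the TATA box TATAAA, the CCAAT box CCAAT and the H1 box AAACACA; none of these contains another. In the sequences below, 200 bases before the start written 5′ to 3′ in the direction of transcription, capitals mark motif matches.
Hist1h1e, chr13:23622559-23622758, minus strand: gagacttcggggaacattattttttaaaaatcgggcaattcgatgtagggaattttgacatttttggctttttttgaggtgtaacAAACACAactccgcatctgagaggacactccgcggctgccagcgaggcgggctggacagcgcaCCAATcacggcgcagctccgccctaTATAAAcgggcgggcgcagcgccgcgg
Hist2h2bb, chr3:96269500-96269699, plus strand: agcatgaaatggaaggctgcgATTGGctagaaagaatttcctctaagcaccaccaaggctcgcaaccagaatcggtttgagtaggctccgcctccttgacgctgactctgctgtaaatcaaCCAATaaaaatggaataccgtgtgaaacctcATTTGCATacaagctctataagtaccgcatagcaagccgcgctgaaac
Hist1h1e, which rose between the ventilated groups, holds the H1 box, a CCAAT box and a TATA box in that order toward the start. Hist2h2bb, which fell at VILI 0 hours, holds 1 CCAAT box on each strand and the octamer, and its RefSeq start lies 52 bases before that of GENCODE. The octamer was found in 12 of the 60 promoters (20%), 7 of H2A and 5 of H2B genes, against 1.74% of all 32851 promoters of this length. TATAAA was in 58.3% (13.6% of all promoters) and CCAAT in 85% (37.4%), but in only 3 of the 12 H4 promoters. AAACACA was in 13.3% of member promoters, among them 5 of 6 of H1 genes, and in 7.18% of all promoters.

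Many H2A and H2B genes are transcribed away from each other from a shared stretch. There were 12 such pairs with 176 to 306 bases between the starts. Both genes were tested in 11 pairs, H2B had the higher level in 6 of them, and the higher gene was 1.04 to 8.37 times the lower, with a median of 1.77. The widest gap was between Hist2h2ac at a mean of 34.4 FPKM and Hist2h2be at 4.11, whose log2 fold changes in VILI 6 hours vs control were 0.05 and -0.68. Their annotated transcripts have 520 and 2620 bases, and FPKM is scaled to length, so the gap depends on these lengths.

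Genes that serve histone mRNA were read beside the cluster genes. Slbp, which binds the stem-loop, was at 11.9 to 12.9 FPKM in controls, 11.1 to 13.2 at VILI 0 hours and 9.84 to 12.1 at VILI 6 hours, and Npat, the activator of histone gene transcription, at 7.71 to 7.94, 7.57 to 7.85 and 6.52 to 8.12 FPKM. Neither was called. Of the 24 genes of histone mRNA 3′ processing, transcription and decay, 1 rose and 1 fell in VILI 0 hours vs control, 1 fell in VILI 6 hours vs control and none was called between the ventilated groups. Of all genes tested, 6.81% rose and 9.35% fell at VILI 0 hours and 12.2% fell at VILI 6 hours against control. Clp1, a cleavage factor subunit, rose by 0.44 at VILI 0 hours (limma adjusted p = 0.255), and Cstf2, another cleavage factor subunit, fell at VILI 0 hours by 0.32 and at VILI 6 hours by 0.30 against control, which with median-centred libraries were -0.20 and -0.18 and no longer called. Of 18 histone chaperones, 1 rose, Nap1l1 at VILI 0 hours by 0.38. Medians of both lists lay between -0.09 and 0.03 in the 3 comparisons, and with centred libraries those against control were above 0. Of 12 other genes listed for RNA without a poly(A) tail, 2 were in the table, Neat1 and Malat1. Neat1, which also has a short polyadenylated form that the gene sum does not separate, fell at VILI 0 hours by 0.61 and Malat1 was not called. Without replicate 1 of VILI 0 hours the Neat1 value was -0.30 and not called, and its call was also lost without replicate 1 or 2 of the controls.

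The histone genes outside the clusters, most of which are known to be made through the cell cycle with poly(A) tails (H2afx also carries the stem-loop), gave 1, 2 and 1 falls and no rise among the 11 tested, where 9.35%, 12.2% and 4.94% of all genes tested fell. H2afv, an H2A.Z variant, fell at VILI 6 hours by 0.49 against control (limma adjusted p = 0.073) and by 0.25 between the ventilated groups. H1f0, the linker histone of cells that have stopped dividing, fell by 0.45 at VILI 0 hours and by 0.43 at VILI 6 hours. Their medians were -0.14, -0.21 and -0.10, so that this list was on the other side of 0 from the cluster genes at VILI 6 hours against both other groups. Without replicate 1 of VILI 6 hours its median was -0.13 against control and 0.03 against VILI 0 hours, so the latter turned in sign. The H1f0 calls were lost with median-centred libraries (-0.33 and -0.30), and the H2afv call between the ventilated groups held under 8 of 19 other settings.

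The median of the S phase and mitosis genes was on the same side of 0 as that of the cluster genes at VILI 0 hours and between the ventilated groups. Of 35 such genes, 5 fell and none rose at VILI 0 hours, 1 rose and 1 fell at VILI 6 hours against control, and 5 rose between the ventilated groups, with medians of -0.23, 0.01 and 0.31. Of all genes tested, 9.35% fell and 6.81% rose at VILI 0 hours, 8.17% rose and 12.2% fell at VILI 6 hours against control, and 5.06% rose between the ventilated groups. Mcm3, a subunit of the replicative helicase, fell at VILI 0 hours by 0.41 and rose between the ventilated groups by 0.47 (limma adjusted p = 0.32). Mcm2 and Mcm5, of the same helicase, fell at VILI 0 hours by 0.64 and 0.58, and Mcm7 fell at VILI 6 hours against control by 0.33. Uhrf1, which maintains DNA methylation in S phase, fell at VILI 0 hours by 0.65 and was higher by 0.66 at VILI 6 hours than at VILI 0 hours. Taking only the transcript with the highest mean FPKM turned the sign of the Mcm5 value at VILI 0 hours and of the Uhrf1 value between the ventilated groups. Birc5, a mitotic gene, rose against control by 0.90 and against VILI 0 hours by 0.86, and Ccne1, cyclin E1, rose against VILI 0 hours by 0.99. Without replicate 3 of VILI 6 hours the Birc5 values were 0.56 and 0.52, and without replicate 3 of VILI 0 hours that of Ccne1 was 0.65, none of them called. The Birc5 calls held under 14 of 19 other settings against control and 10 of 19 against VILI 0 hours. The Mcm3 rise held under all 19 other settings and its fall at VILI 0 hours under 16. The Uhrf1 calls held under 14 at VILI 0 hours and 15 between the ventilated groups. The Mcm7 fall was -0.20 and not called with median-centred libraries. Without replicate 1 of VILI 6 hours, 9 of the 35 rose and 4 fell against control, and 15 rose and 3 fell against VILI 0 hours. In the same fits 12.9% of all genes tested rose and 26% fell against control, and 8.55% rose and 13.9% fell against VILI 0 hours.

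The proliferation marker Mki67 was at 4.23, 6.95 and 3.93 FPKM in controls, 4.01, 5.03 and 3.50 at VILI 0 hours, and 3.23, 7.07 and 11.1 at VILI 6 hours. Top2a, the topoisomerase of dividing cells, was at 4.51, 6.79 and 4.34, then 3.83, 5.10 and 2.93, and then 3.46, 6.57 and 10.4 FPKM. Within each group the libraries stood in the same order for Mki67 and Top2a as for the histone sum, and neither gene was called. That order in all 3 groups was found for 6 of the 35 genes of S phase and mitosis (17.1%), against 0.511% of all genes tested. It was also found for 2 of 7 erythroid markers (28.6%, Hba-a1 and Alas2) and 1 of the 11 replication-independent histone genes tested (9.09%, H3f3b), and for no gene of the other lists. This count was chosen after the values were seen and is a description. Pcna, the replication clamp, did not show it, at 24.1 to 30.1 FPKM at VILI 6 hours and 28.7 to 34.0 FPKM in controls.

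**Figure D5:**
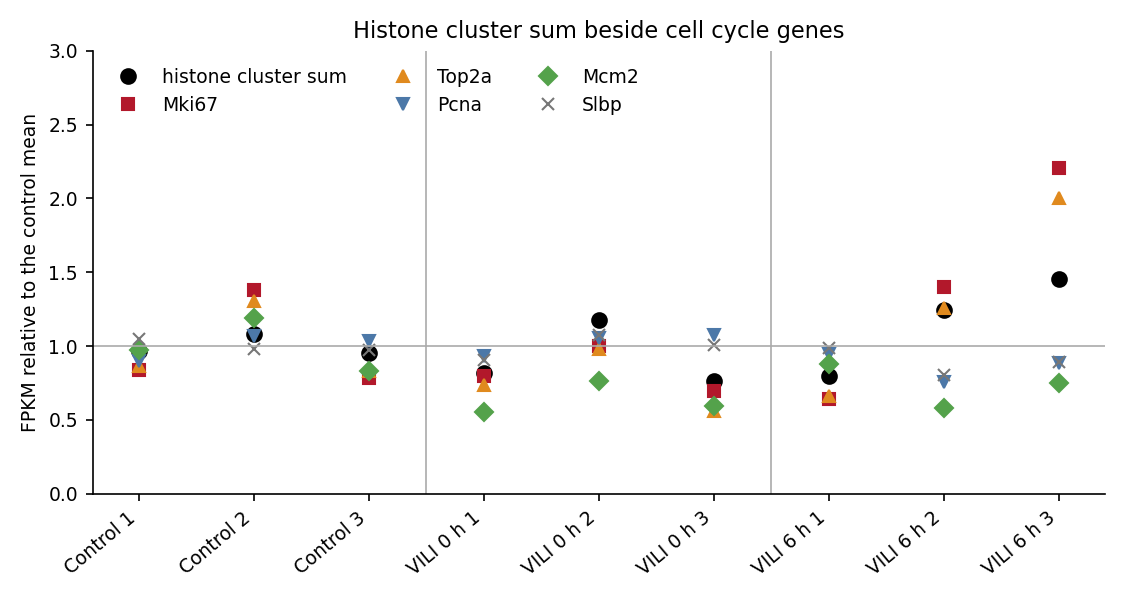
FPKM relative to the control mean in each library for the histone cluster sum and for Mki67, Top2a, Pcna, Mcm2 and Slbp. In replicate 3 of VILI 6 hours Mki67 and Top2a are at their highest values, 11.1 and 10.4 FPKM, and in replicate 1 they lie below every control.

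Markers of other cell types moved between the same libraries. The 16 neutrophil markers summed to 56.4 to 68.1 FPKM in controls, 590, 1067 and 949 at VILI 0 hours, and 509, 1089 and 2251 at VILI 6 hours, with 11 and 13 of the 14 tested called higher than control. Between the ventilated groups the neutrophil marker Cd177 rose by 2.02 (limma adjusted p = 0.243). The neutrophil and the histone sums stood in the same library order at VILI 6 hours and not in the other groups. At VILI 0 hours both were highest in replicate 2 but lowest in different libraries, and the control with the highest histone sum had the lowest neutrophil sum. T cell markers were lowest in replicate 1 of VILI 6 hours at 9.59 FPKM (17.0 to 31.5 elsewhere), with none of 6 called in any comparison, and B cell markers were at 15.1 FPKM there (21.6 to 68.2 elsewhere), with 4 of 6 lower in VILI 6 hours vs control (2 without that replicate) and 1 of 6 lower both at VILI 0 hours and between the ventilated groups (none of the latter without that replicate). For all of these marker lists, the shares of all genes tested called higher and lower were 6.81% and 9.35% at VILI 0 hours, 8.17% and 12.2% at VILI 6 hours against control, and 5.06% and 4.94% between the ventilated groups. Alveolar macrophage markers gave 4 of 8 higher at VILI 0 hours, 1 higher and 1 lower at VILI 6 hours against control and 3 lower between the ventilated groups. Erythroid markers gave 4 of 7 lower between the ventilated groups, and 3 without replicate 1 of VILI 6 hours, alveolar type 2 markers 1 of 6 higher at VILI 0 hours and 1 lower at VILI 6 hours, and endothelial markers 1, 2 and 1 of 6 lower. The part of these cell types in the histone levels was not tested.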

How the data were processed

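Whole lung RNA of 9 libraries in 3 groups of 3 (controls, and mice killed 0 or 6 hours after ventilation) was measured by RNA sequencing with 125-bp paired reads. The authors aligned reads to GRCm38 and computed the deposited FPKM of 60108 transcripts with Cuffdiff; the submitters' processing notes name Bowtie2 2.0.6, TopHat2 2.0.9 and Cuffdiff 2.1.1. The study's methods name a directional kit on rRNA-depleted RNA and the labels another kit, which was not settled; with poly(A) selection, mRNA without a tail would be underestimated. FPKM is scaled to transcript length and library depth, so it holds no counts; read totals were not used here. Values of short transcripts depend on fragment length, and fragments of near-identical genes are divided by an estimate. No sample columns were left unused (0).

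FPKM were summed per gene identifier; 23503 of 23713 Ensembl identifiers matched GENCODE M21. limma 3.58.1 in R 4.3.3 was fitted once to log2(FPKM + 0.1) of the 19378 genes with a mean of 0.1 FPKM or higher, with group as the only factor and an eBayes trend. The study gives P under 0.05 as its threshold; Cuffdiff itself cannot be rerun from FPKM. On simulated data for VILI 6 hours against control (19378 genes, of which 200 were given a log2 change of 3), the fit found 90% of these at an adjusted p under 0.05 and 99% at P under 0.05, and 5.308% of unchanged genes were called at P under 0.05. Replicate numbers do not pair the libraries. Sequences came from GENCODE M21 transcripts and RefSeq promoters; copies were compared with blastn 2.17.0; tables and figures used Python 3.11.15.

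Genes named were those called (up to 15 per comparison), the 12 with the highest mean and the highest of each histone type, the testis genes, from each other list the called genes (up to 4 per comparison, lowest P first), and Slbp, Npat, Mki67, Top2a and Pcna. Other histone genes, among them the remaining H1 genes, Hist1h3f and Hist2h2ac, were named outside this rule. Members and lists were chosen with earlier results of these data known. Alternatives changed the pseudocount, the filter, the centring of libraries, the libraries fitted, the replicate block, the eBayes trend, the transcript used and the gene class, and left out each library.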

Additional observations from a re-analysis of the deposited data

Results flagged for a closer look

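The change from control differed between the ventilated groups, by the limma test of VILI 6 hours vs VILI 0 hours at an unadjusted P under 0.05, for 3 histone genes. The log2 difference was 0.54 for Hist2h2ab, 0.45 for Hist1h4n and 0.85 for Hist1h1e. None had an adjusted p under 0.05 with all 9 libraries. For Hist2h2ab the call held when any 1 library was left out, while those of Hist1h4n and Hist1h1e were lost without replicate 2 or replicate 3 of VILI 6 hours, and without replicate 1 of VILI 0 hours. Median-centred libraries, no filter on low values and eBayes without a trend also ended both of these calls, and of 19 settings 12 kept that of Hist1h4n and 9 that of Hist1h1e.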

How the results depend on the processing

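FPKM holds no counts, so the counting error of low genes was not worked out, and 3 libraries a group limit every call. The count of called histone genes was 2 in VILI 0 hours vs control and became 1 with no filter on low values and 5 with only the 6 libraries compared. In VILI 6 hours vs control it was 2 and became 1 with a pseudocount of 0.01, a mean FPKM of at least 1, the replicate block, eBayes without a trend, the transcript with the highest mean FPKM, or protein-coding genes only. Between the ventilated groups it was 3 and became 1 with no filter, median-centred libraries, or eBayes without a trend. Leaving out 1 library gave counts of 1 to 7, 0 to 21 and 1 to 33, and medians of -0.38 to -0.03, -0.10 to 0.49 and 0.10 to 0.67. The counts of 7, 21 and 33 came without replicate 2 of VILI 0 hours for the first and replicate 1 of VILI 6 hours for the other two. Over all genes, calls at an adjusted p under 0.05 (limma) were 55, 136 and 0, and ran from 1 to 1714, 1 to 4526 and 0 to 362 over the settings. Summed FPKM without 1 library ran from 1802 to 1922 in controls, 1486 to 1869 at VILI 0 hours and 1918 to 2533 at VILI 6 hours, and the control sum was 1584 without Hist1h4d.

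An alternative chosen after seeing the data, without replicate 1 of VILI 6 hours and with median-centred libraries, gave 33 called histone genes and a median of 0.71 at VILI 6 hours against control, and 40 between the ventilated groups. A second one, without the 21 genes counted as having a copy of 99% coding identity, kept the counts within 1.5 times. With the transcript of the highest mean FPKM, Mcm5 at VILI 0 hours was 0.064 and Uhrf1 between the ventilated groups was -1.44. The replicate numbers do not pair the libraries, with correlations between same-numbered libraries of -0.221 to 0.0175, and the replicate block gave 3, 1 and 3 called histone genes. The cause of these moves was not tested.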
